A study of Mus musculus with 12 samples.

Results

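Cyclic AMP is a second messenger made by adenylyl cyclases when a Gs-coupled receptor binds its ligand, and it is broken down by phosphodiesterases. It activates protein kinase A, which phosphorylates the transcription factor CREB, and CREB switches on target genes through the cyclic AMP response element (CRE). In macrophages this pathway carries the signal of prostaglandin E2, adenosine and other mediators and is known for restraining inflammatory cytokines. Several of its targets act back on it, because they remove cyclic AMP, compete with CREB or hold back its coactivators. The 9 genes described here are such parts and targets of the pathway: the receptor Ptger4, the phosphodiesterases Pde4b, Pde4d and Pde3b, the transcription factor Crem, the kinase Sik1, the signal regulators Rgs2 and Irs2, and the growth factor Areg. They were taken by symbol from a count table of 34948 named rows and were chosen by their R300 and blank expression values in these libraries. All 9 were among the 16546 genes with enough counts to be tested.

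The RNA came from peritoneal macrophages of 8-week-old male mice, drawn into the peritoneum with 3% Brewer thioglycolate 3 days earlier, and sequencing gave 12 libraries in 4 groups of 3. R300 KO libraries are Mac-Ern1KO macrophages (KO) after 2 h with R300-opsonized platelets, that is, platelets coated with an antibody that macrophages take up through Fc receptors, and blank KO libraries are Mac-Ern1KO macrophages whose treatment is labelled Con. R300 WT and blank WT libraries are the same 2 conditions in macrophages of Ern1fl/fl mice (WT), which carry the floxed Ern1 allele. Ern1 encodes IRE1α, a sensor of stress in the endoplasmic reticulum, and all 4 groups share the thioglycolate. The labels name no Cre driver and do not say whether the blank cells received platelets, or whether the 3 libraries of a group came from separate mice. The p-values below therefore measure the spread between these libraries.

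Several features of the libraries bear on what follows. Totals, to 6 digits, were 21765600 to 44273700 counts per library. All 9 macrophage markers were detected in every library, with Csf1r at 1500 to 2270 CPM (library-scaled counts after TMM normalisation) and Adgre1 at 566 to 706 CPM. Ern1 counts were 174 to 235 CPM in R300 KO, 116 to 155 CPM in blank KO, 138 to 205 CPM in R300 WT and 94.1 to 117 CPM in blank WT libraries, and counts over the whole gene do not check the deletion of an exon. Although the mice are labelled male, 8 libraries held 143 to 590 CPM of Xist, an RNA made in female cells. The other 4 held at most 0.0742 CPM: R300 KO 3, blank KO 3, R300 WT 2 and blank WT 3, so 1 in each group. The Y-linked genes Ddx3y, Uty, Kdm5d and Eif2s3y summed to 205 to 224 CPM in these 4 libraries. They summed to 42.6 to 162 CPM in the 8 libraries with Xist, so each of those held Y-linked RNA beside Xist. Libraries R300 KO 1 and 2, and libraries R300 WT 1 and 3, were nearly alike (median chi-square per gene of 1.58 and 1.41, against 6.85 to 13.4 for the other pairs within a group), so n = 3 may overstate the independent samples of the R300 groups.

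Promoter sequence was looked up in RefSeq (GRCm38.p6) for the 250 bases upstream of each listed start site. Entries were found for 6 of the 9 genes, in 9 windows, and Crem, Pde3b and Sik1 have none in the table used. The full CRE, TGACGTCA, was in 1 of these 9 windows, that of Areg, and in 1.55% of all 32817 windows. Its shorter core TGACG, on either strand and counted also inside the full element, was in 3 of the 9 windows, those of Areg, Rgs2 and 1 of the 4 start sites of Pde4b, and in 17.7% of all windows. The windows of Ptger4, Pde4d, Irs2 and the other start sites of Pde4b held neither, which says only that these letters are not in those bases. The Areg and Rgs2 windows are shown because they hold the full element and the only pair of core sites without it, with these letters in capitals. Areg lies on the plus strand, with its window at chr5:91139349-91139598, and Rgs2 lies on the minus strand, with its window at chr1:144004150-144004399.
Areg: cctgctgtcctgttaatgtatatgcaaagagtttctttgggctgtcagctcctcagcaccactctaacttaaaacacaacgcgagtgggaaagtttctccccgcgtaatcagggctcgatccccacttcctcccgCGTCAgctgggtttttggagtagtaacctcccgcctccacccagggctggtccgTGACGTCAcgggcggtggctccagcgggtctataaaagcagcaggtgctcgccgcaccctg
Rgs2: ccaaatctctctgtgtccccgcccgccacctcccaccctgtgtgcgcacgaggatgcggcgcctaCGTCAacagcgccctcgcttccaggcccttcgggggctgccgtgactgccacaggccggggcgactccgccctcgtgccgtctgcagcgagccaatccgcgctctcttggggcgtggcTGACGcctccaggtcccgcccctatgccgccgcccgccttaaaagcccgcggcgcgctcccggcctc

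The full site of Areg spans bases 61 to 54 upstream of its start, and a separate core site on the other strand spans bases 115 to 111. The core sites of Rgs2 span bases 67 to 63 and, on the other strand, 185 to 181. A match of letters is a description and not a bound site.

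The genes were chosen with their R300 and blank values known, so those values are given as a description, and no test of that contrast is used to support them. Beside blank cells, R300 cells of both genotypes had more Crem, Pde4d, Pde3b, Pde4b, Sik1, Areg, Irs2 and Rgs2 by group mean, and less Ptger4. The log2 difference ran from -1.84 (Ptger4) to 3.86 (Crem) in KO and from -1.62 (Ptger4) to 3.54 (Crem) in WT, with medians over the 9 genes of 1.31 in KO and 1.06 in WT, where the median over all genes tested was 0.00 in both. At an adjusted p under 0.05 (edgeR's quasi-likelihood test, Benjamini-Hochberg over all genes), 2 of the 9 were called in each genotype, Crem and Pde4d, beside 0.834% of all genes in KO and 0.623% in WT. R300 and blank libraries did not overlap for 5 of the 9 in each genotype, beside 12.3% of all genes in KO and 12.8% in WT. Since the choice of genes used this contrast, nothing is read from these counts. The count also moved with the processing, and DESeq2 called 4 of the 9 in KO and 3 in WT. Over the 21 alternatives Sik1 was called in 2 in KO and 1 in WT, and Ptger4 in 1 in each genotype. Pde3b and Areg were each called in 1 in KO. Pde4d was not called under 1 of 21 alternatives in KO and 11 of 21 in WT. In WT these were the fits without R300 KO 1 or 2, R300 WT 1 or 3, blank KO 1 or any blank WT library, with library totals only, with only the compared groups and with 1 library of each near-alike pair, and the last of these also in KO. In bulk RNA, more cells of a type and more RNA per cell cannot be told apart.

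**Figure D1:**
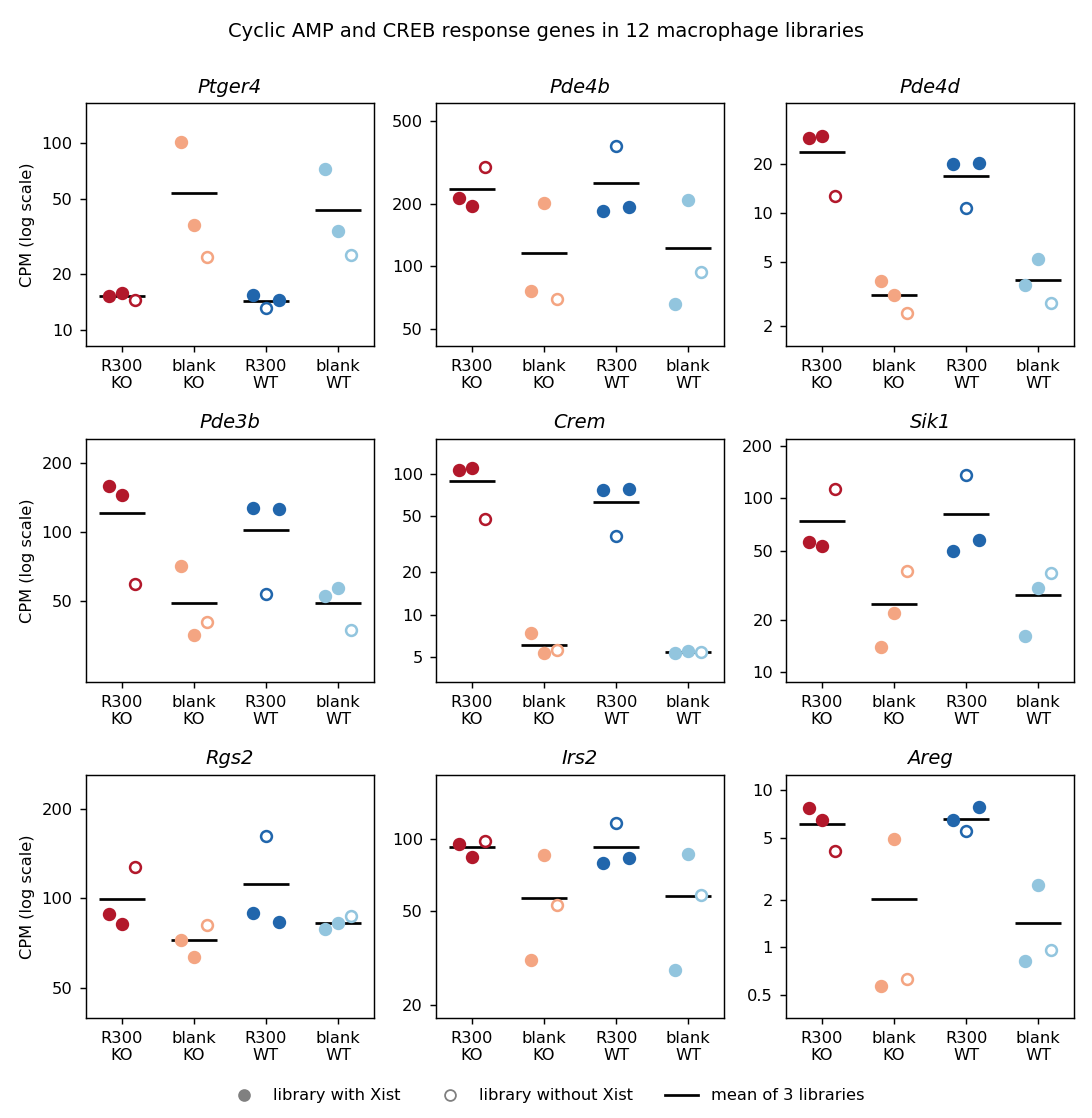
TMM-normalised CPM (log scale) of the 9 genes in each of the 12 libraries, with R300 left of blank in KO and then in WT, bars at the mean of 3 libraries and open circles for the libraries without Xist. Crem and Pde4d separate R300 from blank libraries in both genotypes, Ptger4 is lower in every R300 library, and the open circles of the R300 groups lie at an edge of their group for all 9 genes.

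Ptger4 encodes EP4, the Gs-coupled receptor through which prostaglandin E2 raises cyclic AMP, and lies on chromosome 15 at 5206661 to 5244187 (GRCm38, minus strand). In KO macrophages it had 15.2, 15.8 and 14.4 CPM in R300 libraries 1 to 3, against 102, 36.5 and 24.6 CPM in blank libraries 1 to 3. In WT macrophages it had 15.3, 13.1 and 14.4 CPM with R300, against 72.4, 33.7 and 25.2 CPM in blank cells. The 6 R300 libraries were close to each other and below every blank library, while the blank libraries differed 4.16-fold in KO and 2.88-fold in WT between the highest and the lowest. The fitted R300 level was 0.278 of the blank level in KO (log2 -1.84, SE 0.50) and 0.326 in WT (log2 -1.62, SE 0.49). Genes on the opposite strand, Ttc33 and Gm15937, cover 16.5% of its exonic bases, and the library kit does not mark the strand. How reads over those bases were assigned is not given, so its counts may include reads of these genes or miss some of its own.

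The phosphodiesterases break down cyclic AMP, and the 3 described here differed in level and in spread. Pde4d, on chromosome 13 at 108449948 to 109953461, encodes a phosphodiesterase specific for cyclic AMP. Its level in KO was 29.3, 29.8 and 12.7 CPM with R300, against 3.80, 3.10 and 2.40 CPM in blank cells, and in WT 20.1, 10.8 and 20.3 CPM with R300, against 3.59, 5.23 and 2.78 CPM in blank cells. All R300 libraries lay above all blank libraries, and the lowest of each R300 group was the library without Xist. The fitted ratio of R300 to blank was 7.72 in KO (log2 2.95, SE 0.39) and 4.39 in WT (log2 2.13, SE 0.38).

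Pde4b, on chromosome 4 at 102087543 to 102607259, encodes the PDE4 enzyme known for limiting cyclic AMP in mouse macrophages and monocytes exposed to endotoxin. In KO it had 214, 195 and 301 CPM with R300, against 76.1, 202 and 69.4 CPM in blank cells. In WT it had 184, 380 and 192 CPM with R300, against 66.1, 209 and 93.6 CPM in blank cells. Blank library 2 of each genotype reached the level of the R300 libraries, so the groups overlapped, and the fitted log2 difference was 1.03 (SE 0.51) in KO and 1.04 (SE 0.51) in WT. Pde3b, on chromosome 7 at 114415281 to 114539251, encodes a phosphodiesterase that cyclic GMP inhibits and that insulin activates in fat cells. It had 159, 145 and 59.3 CPM in R300 KO, against 70.8, 35.3 and 40.3 CPM in blank KO, and 127, 53.3 and 126 CPM in R300 WT, against 52.6, 56.8 and 37.4 CPM in blank WT. Each R300 group had a pair of libraries above every blank library and 1, the library without Xist, inside the blank range. Its log2 difference was 1.31 (SE 0.43) in KO and 1.06 (SE 0.42) in WT.

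Crem encodes transcription factors that bind the CRE, among them ICER, a repressor made from an internal promoter that CREB itself activates. It lies on chromosome 18 at 3266048 to 3337748 (minus strand), and counts over the whole gene do not separate ICER from the longer forms. Crem shares 8.01% of its exonic bases with Gm6225 on the opposite strand, and how reads there were assigned is not given. In KO it had 107, 110 and 47.6 CPM with R300, against 7.45, 5.31 and 5.57 CPM in blank cells. In WT it had 76.1, 36.3 and 77.7 CPM with R300, against 5.36, 5.55 and 5.45 CPM in blank cells. Blank WT libraries were nearly equal (5.45 ± 0.0915 CPM, SD, n = 3), and the R300 libraries were higher by several fold but spread 2.32-fold in KO and 2.14-fold in WT. The fitted ratio was 14.5 in KO (log2 3.86, SE 0.37) and 11.6 in WT (log2 3.54, SE 0.37). Sik1, on chromosome 17 at 31844250 to 31855804, encodes salt-inducible kinase 1, which keeps the CREB coactivators of the CRTC family out of the nucleus. It had 56.4, 53.1 and 114 CPM in R300 KO, against 14, 21.9 and 38.4 CPM in blank KO, and 49.5, 137 and 57.9 CPM in R300 WT, against 16.2, 30.3 and 37.2 CPM in blank WT. R300 and blank libraries did not overlap in either genotype, and the log2 difference was 1.59 (SE 0.50) in KO and 1.54 (SE 0.50) in WT.

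**Figure D2:**
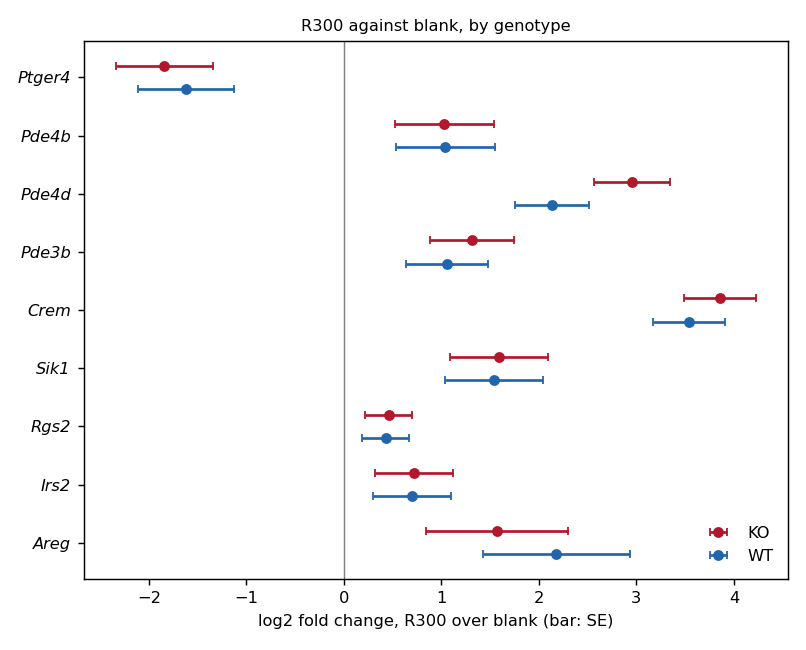
Fitted log2 fold change of R300 over blank for the 9 genes, with the SE of the fit as bars, KO above WT for each gene. The points run from -1.84 (Ptger4) to 3.86 (Crem) in KO and from -1.62 to 3.54 in WT, and the SE is 0.24 for Rgs2 and 0.73 and 0.75 for Areg.

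Rgs2, Irs2 and Areg are CREB targets that act in other signalling routes. Rgs2, on chromosome 1 at 143999338 to 144004161, encodes a protein that shortens signalling through Gq. It had 88.7, 82.0 and 127 CPM in R300 KO, against 72.2, 63.5 and 81.2 CPM in blank KO, and 89.5, 162 and 83.3 CPM in R300 WT, against 79.0, 82.8 and 86.9 CPM in blank WT. The groups touched without overlap in KO and overlapped in WT, and the log2 difference, 0.46 in KO and 0.43 in WT (SE 0.24 in both), was the smallest in size of the 9. Irs2, on chromosome 8 at 10984681 to 11008458, encodes an adaptor of the insulin receptor and a known CREB target in mouse liver and pancreatic beta cells. In KO it had 95.7, 84.2 and 98.5 CPM with R300, against 30.8, 86.0 and 52.6 CPM in blank cells. In WT it had 79.5, 117 and 83.1 CPM with R300, against 28.1, 86.6 and 57.9 CPM in blank cells. The groups overlapped in both genotypes through blank library 2, and the log2 difference was 0.72 in KO and 0.70 in WT (SE 0.40 in both).

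Areg encodes amphiregulin, a ligand of the EGF receptor known in macrophages for tissue repair, and lies on chromosome 5 at 91139599 to 91148432. In KO it had 7.76, 6.44 and 4.13 CPM with R300, against 0.568, 4.90 and 0.628 CPM in blank cells. In WT it had 6.46, 5.50 and 7.81 CPM with R300, against 0.822, 2.50 and 0.964 CPM in blank cells. All R300 libraries lay above 4 CPM, and 4 of the 6 blank libraries lay below 1 CPM. The log2 difference was 1.57 (SE 0.73) in KO and 2.18 (SE 0.75) in WT. Blank KO 2, the highest blank library, decided the size in KO: without it the log2 difference was 3.34.

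Per kilobase of exon, taken over all annotated exons of a gene, Rgs2 was highest and Pde4d lowest in all 4 groups. Those exons spanned 12006 bases for Pde4d and 3627 for Rgs2. A gene whose transcripts use only part of its annotated exons is understated, so the order between genes is rough. In R300 KO the order was Rgs2 (27.4 ± 6.68 CPM per kb, SD, n = 3), Pde4b (22.4 ± 5.32), Crem (15 ± 6.01), Irs2 (14.7 ± 1.20), Sik1 (14.5 ± 6.66), Pde3b (13.3 ± 5.92), Areg (5.03 ± 1.51), Ptger4 (2.28 ± 0.101) and Pde4d (1.99 ± 0.814). Neighbours among the first 6 overlapped between libraries, as did Ptger4 and Pde4d, while Areg stood apart from both of its neighbours. In blank KO the order was Rgs2 (19.9 ± 2.44 CPM per kb), Pde4b (11.0 ± 7.08), Irs2 (8.93 ± 4.40), Ptger4 (8.18 ± 6.29), Pde3b (5.36 ± 2.11), Sik1 (4.83 ± 2.43), Areg (1.67 ± 2.04), Crem (1.04 ± 0.197) and Pde4d (0.258 ± 0.0581), and only Crem and Pde4d did not overlap as neighbours. By this level Crem was at rank 3 in R300 KO and rank 8 in blank KO, while Ptger4 was at rank 8 in R300 KO and rank 4 in blank KO. In R300 WT the order was Rgs2 (30.8 ± 12.0 CPM per kb), Pde4b (23.9 ± 10.5), Sik1 (15.9 ± 9.39), Irs2 (14.8 ± 3.29), Pde3b (11.2 ± 4.65), Crem (10.8 ± 3.97), Areg (5.43 ± 0.955), Ptger4 (2.14 ± 0.171) and Pde4d (1.42 ± 0.450), and Areg, Ptger4 and Pde4d were separate from each other. In blank WT it was Rgs2 (22.9 ± 1.09 CPM per kb), Pde4b (11.6 ± 7.18), Irs2 (9.10 ± 4.62), Ptger4 (6.58 ± 3.78), Sik1 (5.44 ± 2.09), Pde3b (5.37 ± 1.12), Areg (1.18 ± 0.766), Crem (0.925 ± 0.0155) and Pde4d (0.322 ± 0.104). There Rgs2 was separate from Pde4b, Pde3b from Areg and Crem from Pde4d, and the other neighbours overlapped.

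The 9 genes split by how the libraries without Xist stood within their group. In both R300 groups the library without Xist was below both others for Crem, Pde4d, Pde3b, Areg and Ptger4 and above both others for Pde4b, Sik1, Rgs2 and Irs2. For Crem it held 47.6 CPM, against a mean of 109 CPM in the other R300 KO libraries, and 36.3 CPM, against 76.9 CPM in the other R300 WT libraries. For Sik1 it held 114 CPM, against 54.7 CPM in R300 KO, and 137 CPM, against 53.7 CPM in R300 WT. Sik1 and Rgs2 were highest in the library without Xist in all 4 groups, and Ptger4 and Pde4d were lowest in it in all 4. In each R300 group the other libraries are the near-alike pair, so the split sets that pair against 1 library. Whether sex composition or another property of these libraries sets it was not tested.

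Within each set the direction of R300 against blank was as in the pooled values for all 9 genes, but the size was not. In the libraries with Xist (2 R300 against 2 blank) the ratio of mean Crem was 17.1 in KO and 14.1 in WT, and in those without (1 against 1) it was 8.55 in KO and 6.67 in WT. For Pde4b the ratio was 1.47 in KO and 1.37 in WT with Xist, and 4.33 in KO and 4.07 in WT without. Ptger4 was at 0.224 of blank in KO and 0.280 in WT with Xist, and at 0.587 in KO and 0.518 in WT without. Areg was 2.60-fold in KO and 4.30-fold in WT with Xist and 6.58-fold in KO and 5.71-fold in WT without. Pde3b was 2.86-fold in KO and 2.32-fold in WT with Xist and 1.47-fold in KO and 1.42-fold in WT without. Rgs2 in the WT libraries with Xist was 1.07-fold. The ratios without Xist have no replicate.

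**Figure D3:**
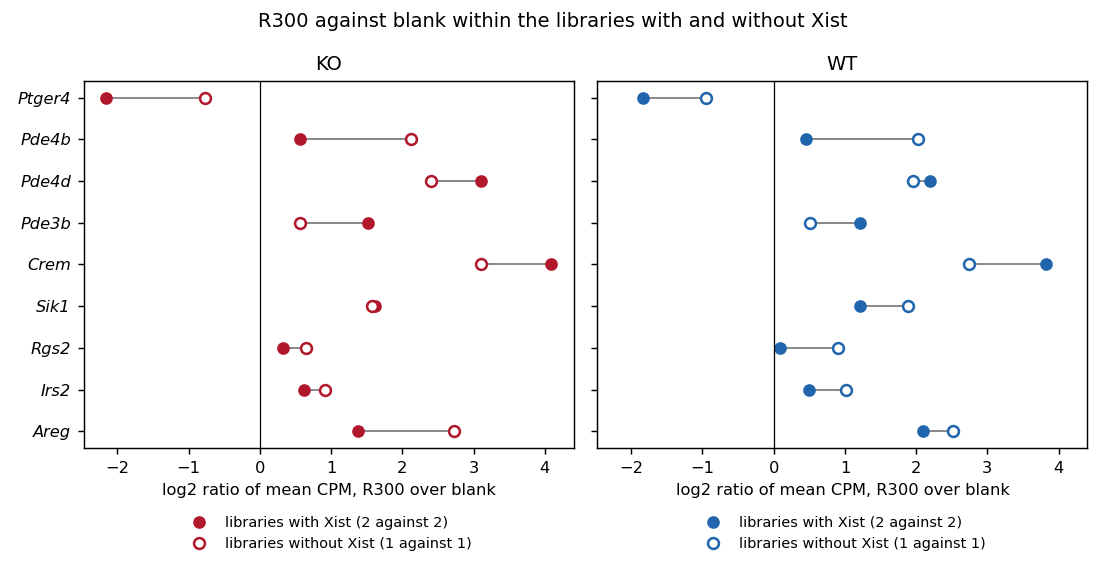
Log2 ratio of mean CPM, R300 over blank, for the 9 genes in KO and in WT, with filled circles for the libraries with Xist (2 against 2) and open circles for those without (1 against 1). Both circles of a gene lie on the same side of 0; Pde4b has the larger ratio without Xist and Crem, Pde3b and Ptger4 the more distant ratio from 0 with it, in both genotypes.

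Markers of other cells also moved with some of these values. The summed level of 9 B cell markers, all of them detected, was 71.5 to 122 CPM in R300 KO, 108 to 258 CPM in blank KO, 59.1 to 81.9 CPM in R300 WT and 67 to 285 CPM in blank WT. Its highest values, 258 and 285 CPM, were in blank library 2 of each genotype, the libraries with the highest blank Pde4b, Irs2 and Areg. Blank library 2 was not high in B cell markers alone. In both genotypes its neutrophil sum was also the highest of the blank libraries (230 CPM in KO and 230 CPM in WT). The same held for its eosinophil, T and NK cell, mast cell and dendritic cell sums. The platelet and macrophage sums in KO, and the mesothelial cell and fibroblast sum in both, were highest in blank library 1. Of the 9 B cell markers, 0 had a positive log2 difference of R300 from blank in either genotype, with 0 called. The sum of 10 mast cell markers was 58.6 to 116 CPM in R300 KO, against 28.6 to 57.0 CPM in blank KO, and 46.6 to 65.5 CPM in R300 WT, against 16.1 to 26.5 CPM in blank WT. It did not overlap between R300 and blank in either genotype, all 8 mast cell markers tested had a positive log2 difference in both, and 1 was called in each. The sum of 8 dendritic cell markers was 42.9 to 60.0 CPM in R300 KO, against 23.9 to 37.2 CPM in blank KO, and 46.2 to 62.7 CPM in R300 WT, against 19.8 to 34.7 CPM in blank WT, with 4 of the 8 positive in KO, 5 of the 8 in WT and 1 called in each. Mesothelial cell and fibroblast markers, 13 in all, summed to 327 to 768 CPM in R300 KO, against 324 to 438 CPM in blank KO, and 179 to 1310 CPM in R300 WT, against 138 to 613 CPM in blank WT. All 12 of them that were tested had a positive log2 difference in both genotypes and 0 were called, and the highest sum was in R300 WT 3. The macrophage list summed to 12700 to 14800 CPM in R300 KO, 11200 to 12300 CPM in blank KO, 18600 to 19300 CPM in R300 WT and 17400 to 19300 CPM in blank WT. Every KO library was below every WT library in this sum. Most of the sum was Lyz2, at 6060 to 13500 CPM over the 12 libraries, whereas Adgre1 was at 566 to 706 CPM. The sum is therefore no measure of the number of macrophages. No marker of these lists was at 0 in all libraries, and the part of these cells in the levels of the 9 genes was not tested.

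The genotype comparisons were not used to choose the genes and can be tested. No difference between KO and WT passed for any of the 9, and none passed for any of the 16546 genes tested (0% called) in either condition or in the difference of responses. Among all genes 324 had an unadjusted p under 0.05 between R300 KO and R300 WT, 181 between blank KO and blank WT and 95 for the difference of responses, and DESeq2 called 12, 2 and 0. Among the 9 genes none had an unadjusted p under 0.05, none was called by DESeq2, and no pair of groups was free of overlap, beside 7.91% of all genes in R300 cells and 3.70% in blank cells. In R300 cells, KO minus WT on the log2 scale ran from -0.17 (Rgs2, SE 0.24) to 0.49 (Pde4d, SE 0.36), with a median of -0.01. Crem was 88.5 ± 35.4 CPM in R300 KO and 63.4 ± 23.4 CPM in R300 WT (SD, n = 3 each), a log2 difference of 0.48 (SE 0.33, edgeR unadjusted p = 0.171, adjusted p = 1.00) with libraries that overlapped. In blank cells it ran from -0.33 (Pde4d, SE 0.38) to 0.49 (Areg, SE 0.74), with a median of -0.03, and that of Crem was 0.16 (SE 0.35). The Areg value turned to -1.28 without blank KO 2.

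The response to R300 was compared between the genotypes by the interaction term, KO minus WT. Pde4d had the highest value, 0.81 (SE 0.52, edgeR unadjusted p = 0.146, adjusted p = 1.00), and Areg the lowest, -0.60 (SE 1.02), which turned to 1.17 without blank KO 2. Crem differed by 0.32 (SE 0.48), and the median over the 9 genes was 0.03, where that over all genes was -0.01. The SE of these differences was 0.34 to 1.02 log2 units, and a p that misses the threshold does not show that KO and WT macrophages respond alike. Among the libraries that hold Xist its level was 553 and 575 CPM in R300 KO, against 143 and 169 CPM in R300 WT, and 590 and 464 CPM in blank KO, against 148 and 431 CPM in blank WT, so genotype and sex composition cannot be told apart there. The ratio of R300 KO to R300 WT was 1.42 for Crem and 1.46 for Pde4d in those libraries, and 1.31 for Crem and 1.17 for Pde4d in the libraries without Xist (1 against 1).

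**Figure D4:**
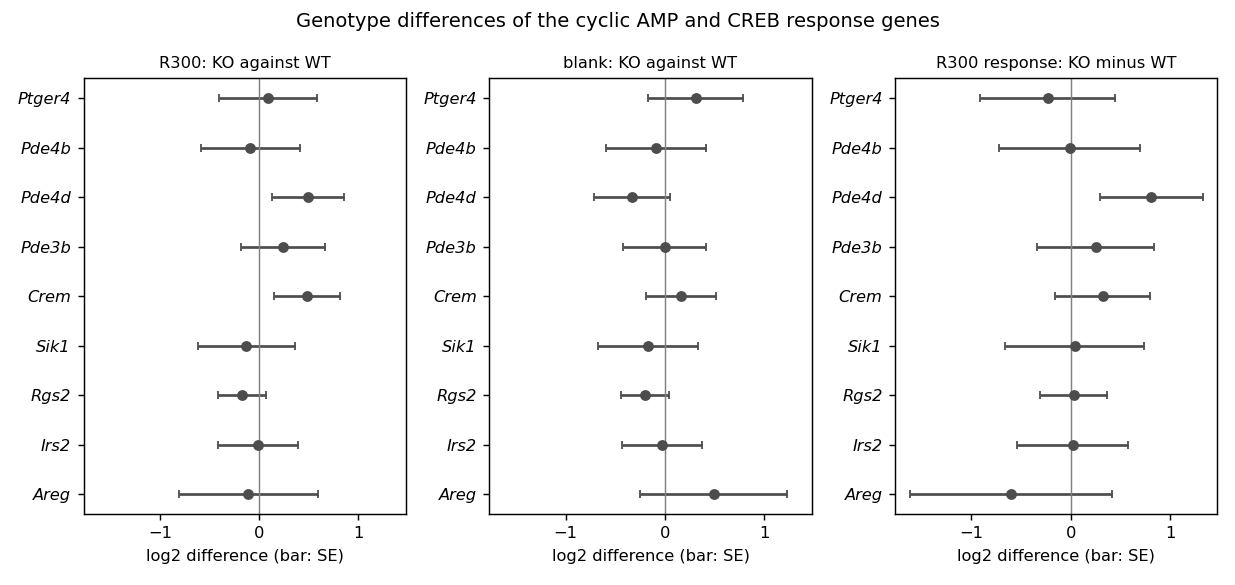
Log2 difference of KO over WT in R300 cells (left), in blank cells (middle) and KO minus WT of the R300 response (right) for the 9 genes, with the SE of the fit as bars. Values run from -0.17 to 0.49, from -0.33 to 0.49 and from -0.60 to 0.81, and 0 of 9 genes passed in each panel.

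The wider pathway was described with 11 lists of 206 other genes, of which 202 were in the table and 167 were tested. R300 against blank, 9 of the 167 (5.39%) were called in KO, 8 higher and 1 lower, and 8 (4.79%) were called in WT, 7 higher and 1 lower, beside 0.834% of all genes in KO and 0.623% in WT. The lists were chosen with earlier results of these data known, so these shares are a description and no independent evidence that the pathway differs from other genes. The same limit holds for the adjusted p and calls of single list genes, R300 against blank, given below. How often a call held under the alternatives describes its dependence on the processing and adds no support. The list of other CREB target genes held 7 of the calls in each genotype, all higher, of 47 tested, and its median log2 difference was 0.54 in KO and 0.69 in WT. Of those 47, 35 in KO and 34 in WT had a positive difference. An unadjusted edgeR p under 0.05 was reached by 21 of them in KO and 22 in WT, beside 8.78% of all genes in KO and 8.72% in WT. Without R300 KO 1 the KO count was 5, and without R300 WT 1 or R300 WT 3 the WT count was 5. DESeq2 called 18 pathway genes in KO and 12 in WT, beside 2.37% in KO and 2.31% in WT of all genes to which it gave an adjusted p. No pathway gene was called between KO and WT in either condition or for the difference of responses with edgeR or DESeq2, and 1, 0 and 0 of the 167 had an unadjusted p under 0.05.

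Hdac5, a class IIa histone deacetylase whose nuclear export depends on phosphorylation, was 270 ± 19.2 CPM in R300 KO and 78.0 ± 13.4 CPM in blank KO, and 258 ± 18.9 CPM in R300 WT and 79.6 ± 6.93 CPM in blank WT (SD, n = 3 each). It rose by a log2 of 1.79 in KO (SE 0.13, edgeR adjusted p = 0.000105) and 1.69 in WT (SE 0.13, adjusted p = 0.000181). Its R300 libraries spanned only 250 to 288 CPM in KO and 242 to 279 CPM in WT, and the rise was 3.58-fold in KO and 3.26-fold in WT with Xist and 3.26-fold in KO and 3.19-fold in WT without. Nfil3, a basic leucine zipper repressor of transcription, was 77.6 to 132 CPM in R300 KO, against 15.4 to 28.2 CPM in blank KO, and 98.9 to 114 CPM in R300 WT, against 17.4 to 29.4 CPM in blank WT. Its log2 rise was 2.22 in KO (SE 0.27, edgeR adjusted p = 0.00286) and 2.21 in WT (SE 0.27, adjusted p = 0.00387). Hdac5 and Nfil3 were called in both genotypes under all 21 alternatives. Other called genes of the CREB target list were the orphan nuclear receptors Nr4a1, Nr4a2 and Nr4a3, the angiogenic factor Vegfa and matrix protein Thbs1. Their log2 rises were 1.88 (Nr4a3) to 3.80 (Nr4a2) in KO and 2.28 (Nr4a1) to 3.45 (Thbs1) in WT. Cyclic AMP and CREB binding were not measured in these libraries, so whether CREB drove these rises was not tested. Thbs1 lost its call without any 1 of R300 KO 1 or 2 and blank KO 2 or 3 in KO (edgeR adjusted p of 0.0879 to 0.105), and without R300 WT 1 or 3 or any blank WT library in WT (0.0877 to 0.108). Nr4a1 lost it in KO without R300 KO 1 (0.0528) and in WT without R300 WT 1, R300 WT 3 or blank WT 2 (0.0712 to 0.0900). Other alternatives removed calls too. Of all 21, Nr4a1 was called in 18 in KO and 14 in WT, and Thbs1 in 14 in each genotype. Nr4a3 was called in 20 in KO and 21 in WT, and Nr4a2 and Vegfa in 21 in both.

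Upstream of CREB most lists held no called gene, beside 0.834% of all genes called in KO and 0.623% in WT. At that share lists this short would seldom hold a called gene, so nothing is read from its absence. None of 15 Gs-coupled receptors was called in either genotype, where Ptger4 stands outside the list, and the lowest p belonged to Calcrl (log2 -0.93, SE 0.31, edgeR adjusted p = 0.318) in KO and to the histamine receptor Hrh2 (log2 -1.48, SE 0.47, adjusted p = 0.315) in WT. The adenosine receptor Adora2b had a log2 difference of 1.30 (SE 0.51, edgeR adjusted p = 0.445) in KO and 1.20 (SE 0.51, adjusted p = 0.535) in WT. None of 9 Gi-coupled receptors, of 16 G proteins and adenylyl cyclases, of 6 Epac and other effectors or of 8 genes of prostaglandin E2 synthesis, export and breakdown was called. Their median log2 differences lay between -0.22 and 0.11 in both genotypes. Ptgs2 stands in the CREB target list and is not among the 8 prostaglandin genes. DESeq2 called no gene of these lists or of the Gs-coupled receptors either. An unadjusted edgeR p under 0.05 was reached by 3 of 15 Gs-coupled receptors in KO and 2 in WT. In KO it was also reached by 1 of 9 Gi-coupled receptors and 1 of 16 genes of the G protein list. Over all genes tested, 8.78% in KO and 8.72% in WT reached it.

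None of the 14 other phosphodiesterases tested was called in either genotype by edgeR or DESeq2, and a list this short would seldom hold a call. In each genotype 1 had an unadjusted edgeR p under 0.05, beside 8.78% of all genes in KO and 8.72% in WT. The median log2 difference of the 14 was 0.08 in KO and -0.02 in WT. The lowest p among them belonged to Pde7b, which acts on cyclic AMP, at a log2 of 0.70 in KO (SE 0.29, edgeR adjusted p = 0.503) and 0.74 in WT (SE 0.29, adjusted p = 0.483). Pde4a, of the same subfamily as Pde4b and Pde4d, was 5.89 ± 0.423 CPM in R300 KO and 7.66 ± 2.09 CPM in blank KO, and 7.69 ± 0.363 CPM in R300 WT and 9.22 ± 1.57 CPM in blank WT (SD, n = 3 each). Its log2 difference was -0.38 (SE 0.20) in KO and -0.26 (SE 0.20) in WT.

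Among 18 tested genes of protein kinase A, its inhibitors and its anchors, Akap10, an anchor that binds the regulatory subunits of the kinase, was called lower in both genotypes. It was 32.5 to 35.2 CPM in R300 KO, against 45.1 to 59.4 CPM in blank KO, and 30.9 to 33.9 CPM in R300 WT, against 51.2 to 60.5 CPM in blank WT. Akap10 fell by 0.63 on the log2 scale in KO (SE 0.11, edgeR adjusted p = 0.0275) and by 0.77 in WT (SE 0.11, adjusted p = 0.0122). The KO call was lost without any 1 of 7 libraries (R300 KO 1, 2 or 3, R300 WT 1 or 3, blank KO 1 or 3; edgeR adjusted p of 0.0579 to 0.145), and the WT call without R300 WT 1 or 3 or blank WT 1 (0.0718 to 0.0840). Over all 21 alternatives Akap10 was called in 11 in KO and in 15 in WT. Prkar1a, which encodes a regulatory subunit of the kinase, had log2 differences of 0.43 (SE 0.11, edgeR adjusted p = 0.145) in KO and 0.34 (SE 0.11, adjusted p = 0.333) in WT.

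Among 18 tested genes of the CREB family, its coactivators and kinases, Crtc3, a coactivator that salt-inducible kinases restrain, was called in KO. It was 79.3 ± 12.2 CPM in R300 KO and 43.7 ± 4.88 CPM in blank KO, and 65.3 ± 8.57 CPM in R300 WT and 42.4 ± 7.24 CPM in blank WT (SD, n = 3 each). It rose by a log2 of 0.86 in KO (SE 0.16, edgeR adjusted p = 0.0357), and its log2 difference was 0.62 in WT (SE 0.16, adjusted p = 0.158). The difference of these responses was 0.24 (SE 0.22, edgeR adjusted p = 1.00). The KO call was lost without any 1 of 8 libraries (R300 KO 1 or 2, R300 WT 1 or 3, any blank KO library or blank WT 1), with edgeR adjusted p of 0.0550 to 0.193. Over all 21 alternatives Crtc3 was called in 10 in KO and in 2 in WT.

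Around the other members, none of 7 RGS proteins and insulin receptor genes and none of 9 EGF family genes was called by edgeR. Over all genes 0.834% were called in KO and 0.623% in WT, so lists this short would seldom hold a call. DESeq2 called Rgs3 in KO and Nrg1 in both genotypes. An unadjusted edgeR p under 0.05 was reached by 1 gene of the RGS list in each genotype and by 2 EGF family genes in KO and 3 in WT. Over all genes the share was 8.78% in KO and 8.72% in WT. Rgs3, which acts like Rgs2 on G proteins, had log2 differences of -1.22 (SE 0.31, edgeR adjusted p = 0.136) in KO and -0.89 (SE 0.31, adjusted p = 0.376) in WT. Nrg1, neuregulin 1, a ligand of the ERBB receptors as Areg is of the EGF receptor, was 7.50 to 35.7 CPM in R300 KO, against 2.21 to 4.60 CPM in blank KO, and 3.95 to 24.7 CPM in R300 WT, against 1.82 to 3.02 CPM in blank WT. Its groups did not overlap, with log2 differences of 2.87 (SE 0.70, edgeR adjusted p = 0.114) in KO and 2.81 (SE 0.71, adjusted p = 0.151) in WT. Nrg1 was called in KO without R300 KO 3 (0.0365) or R300 WT 2 (0.0414), and in WT without R300 WT 2 (0.0359), which are libraries without Xist.

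**Figure D5:**
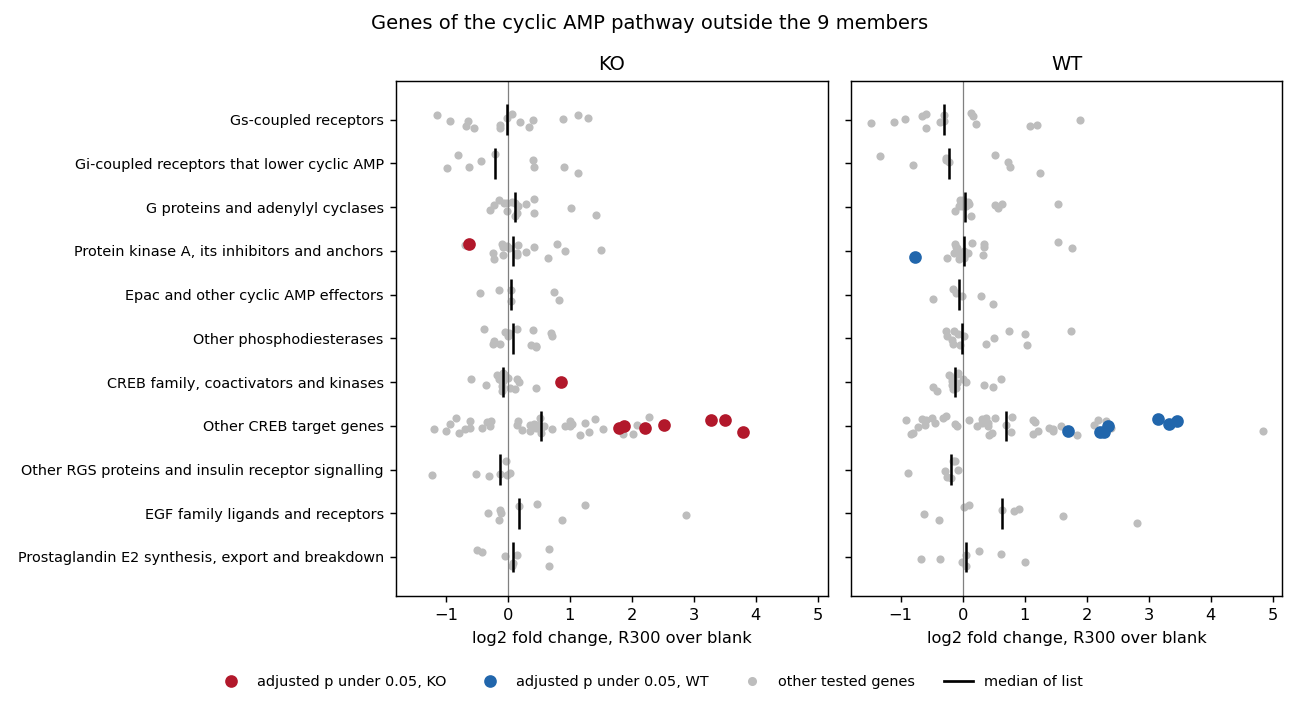
Fitted log2 fold change of R300 over blank for the 167 tested genes of 11 cyclic AMP pathway lists in KO (left) and WT (right), with the 9 and 8 called genes in colour and a bar at each list's median. The called genes lie in the list of other CREB targets, apart from Akap10 in both genotypes and Crtc3 in KO, and the list medians other than those of CREB targets and, in WT, of EGF family genes (0.63) lie between -0.31 and 0.18.

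The genes outside the pathway lists whose log2 CPM followed that of Crem most closely over the 12 libraries, among 11329 genes with a mean of at least 1 CPM, were Gpalpp1, Auh, Cyth1, Cnnm2 and Gcsh. Pearson's r was 0.996 for Gpalpp1, 0.994 for Auh and Cyth1, 0.993 for Cnnm2 and 0.991 for Gcsh. Gpalpp1 was 292 ± 72.0 CPM in R300 KO and 74.8 ± 3.81 CPM in blank KO, and 242 ± 52.6 CPM in R300 WT and 78.0 ± 1.48 CPM in blank WT (SD, n = 3 each). Cyth1, a nucleotide exchange factor of ARF proteins, was 528 ± 89.9 CPM in R300 KO and 136 ± 23.5 CPM in blank KO, and 457 ± 90.1 CPM in R300 WT and 134 ± 14 CPM in blank WT (SD, n = 3 each). The 12 libraries fall into R300 and blank groups, so these coefficients describe a shared split as well as shared variation, and no test is attached to them.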

How the data were processed

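Poly(A) RNA was sequenced in 12 libraries of peritoneal macrophages. The authors deposited raw counts per gene symbol. The mm10 build and the tools HISAT2 (version 2) and featureCounts 2.0.3, beside FastQC, fastp and DESeq2, are named in the submitters' processing notes, and strand handling is not given in the sources used here. The 102 rows without a symbol (0.0232% to 0.0328% of counts) were left out. Counts were tested with edgeR 4.0.16 in R 4.3.3 (TMM, filterByExpr, robust quasi-likelihood fit over 4 group means, Benjamini-Hochberg over 16546 genes, called under 0.05), after the script was tested on simulated data. The common biological coefficient of variation was 0.267. With 3 libraries against 3, a two-sided exact permutation test of a single value cannot give a p under 0.1. CPM is TMM-normalised. Positions and exon lengths come from GENCODE (GRCm38).

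The members and lists were chosen with earlier results of these data known. Named from the lists are genes called in any comparison (at most the 6 with the lowest p per list and comparison) and, per list, the 2 with the lowest p in each R300 comparison, of which not all are printed. Thbs1, beyond the first 6, was named after its values were seen. Like genes are the 5 with the highest Pearson correlation to Crem. Same-numbered blank libraries of KO and WT deviated together (correlations 0.514, 0.535 and 0.558), so the numbers may pair that comparison. R300 KO 3, without Xist, also deviated with the Xist-free blank KO 3 (0.608) and blank WT 3 (0.56), so the correlations alone do not establish pairing. Same-numbered pairs with R300 were mixed. Over the 18 pairs of all groups, the blank pairs included, correlations ran from -0.599 to 0.608, 10 of them over 0.1. Alternatives were DESeq2 1.42.0, relative log expression factors, library totals, no filter, a fit of the 2 compared groups alone, a block for the replicate number, a batch term for Xist-free libraries, only libraries with Xist, 1 library of each near-alike R300 pair, and each library left out. A blocked fit of the blank groups alone was added after seeing the data.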

Additional observations from a re-analysis of the deposited data

How the results depend on the processing

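Of the R300 differences of the 9 members, 0 of 378 values under the alternatives changed sign. Of the genotype and interaction values, 73 of 567 changed sign and none was called (lowest adjusted p 0.787), and the largest main value among those that turned was 0.60. All genes called with R300 numbered 138 in KO and 103 in WT. They were 411 in KO and 343 in WT with DESeq2, 43 and 41 with only the groups compared, 450 and 347 with a batch term for Xist-free libraries, 290 and 242 with only the Xist-holding libraries, and 34 and 28 with 1 library of each near-alike pair. With each library left out in turn they were 45 to 171 in KO and 32 to 135 in WT. Pathway genes called, 9 in KO and 8 in WT, were 18 in KO with DESeq2, 19 in KO and 19 in WT with the batch term, 18 and 15 with only the Xist-holding libraries, 4 and 5 with 1 of each near-alike pair, and 5 to 10 in either with a library left out. Between KO and WT, DESeq2 called 12 genes with R300 and 2 in blank cells, the unfiltered fit 1 in each, and the batch term 1 in blank cells. The replicate block gave 141 genes in KO and 119 in WT, and 9 pathway genes in each, and the blocked fit of the blank groups alone called 0 genes. No member's call changed with either. The single log2 values that changed sign with a library left out included those of Areg between blank KO and blank WT (-1.28 to 1.20) and in the interaction (-1.31 to 1.17), Crem between blank KO and blank WT (-0.01 to 0.25), Rgs2 between R300 KO and R300 WT (-0.38 to 0.20), and, for R300 against blank, Ptger3 in KO (-0.18 to 0.73), Rapgef4 in WT (-0.53 to 0.66) and Rgs19 in KO (-0.23 to 0.11). Ptger3 was also at -0.16 with 1 library of each near-alike pair. The cause was not tested. Areg had the fewest counts of the 9, with 19 in blank KO 1 and 19 in blank WT 1, against 212 in blank KO 2.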
